A study of Homo sapiens with 21 samples.

Results

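The BCL2 family sets the threshold at which a cell opens its mitochondrial outer membrane and commits to apoptosis. Its RNA was followed in THP1, a monocytic acute myeloid leukemia line. The members were taken by gene symbol from the authors' table of DESeq2-normalized counts: BCL2, BCL2L1, MCL1 and BCL2A1, BAX and BAK1, and BID, BCL2L11, PMAIP1 and BBC3. All 10 were found among 20423 genes, and all 10 passed the filter on low values (a mean of at least 10 normalized counts), which 13021 genes passed. The choice used their names and no threshold on a value.

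The study asked how THP1 cells change when IRF2BP2, a transcriptional corepressor, is depleted, and when ATF7 or JDP2, related basic leucine zipper factors, are edited out. The 19 libraries analysed here came from cells grown in RPMI with serum. The 5 controls were 2 libraries with a control short hairpin RNA (shRNA control replicates 1 and 3), 1 wild type library (replicate 2) and 2 KO control libraries (replicates 1 and 2). The IRF2BP2 knockdown had 3 libraries for each of 2 hairpins in the pLKO.1 vector, called IRF2BP2 shRNA 1 and shRNA 2. ATF7 KO and JDP2 KO cells were made with Lenti-CRISPRv2 and isolated as single cells by limiting dilution, with 2 clones of each knockout and 2 libraries a clone, so the libraries of a clone share its founder cell. The labels do not say whether replicates were separate cultures, so p-values measure only how these libraries vary, part of which may be technical.

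Antiapoptotic members (BCL2, BCL2L1 encoding BCL-XL, MCL1, BCL2A1) hold the effectors BAX and BAK1 in check at the mitochondrion. BH3-only members (BID, BCL2L11 encoding BIM, PMAIP1 encoding NOXA, BBC3 encoding PUMA) bind the antiapoptotic proteins or activate the effectors. MCL1 is known as a main survival factor of myeloid cells, BCL2 is the target of venetoclax in acute myeloid leukemia, and BCL2A1 is an NF-kB target found in activated myeloid cells.

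Reads in genes ranged from 28.65 to 60.2 M per library. The targeted genes were inspected first. IRF2BP2 was at 14859 to 21364 normalized counts in the controls, at 9456, 11110 and 9802 with shRNA 1, and at 12587, 16649 and 25651 with shRNA 2. The library labelled IRF2BP2 shRNA 2 replicate 3 was therefore above every control, and the knockdown as a group did not pass the test for IRF2BP2 (log2 change -0.42 ± 0.25 (SE), limma adjusted p = 0.285). ATF7 RNA in ATF7 KO (362.5 to 644.7, controls 210 to 537.2) and JDP2 RNA in JDP2 KO (3158 to 5693, controls 2966 to 5085) were not lower. Gene counts do not show an edit that leaves the transcript in place, so they check neither knockout. For 3 libraries the share of genes over 2-fold away from the gene's median was 25.6% to 48.5%, against 3.2% to 14.8% for the other 16: IRF2BP2 shRNA 1 replicate 3, IRF2BP2 shRNA 2 replicate 3 and JDP2 KO clone 1 replicate 2. These 3 libraries are called the outlying libraries. The highest value of 8 members and the lowest value of 8 members fell in one of them.

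In the controls the 10 monocytic markers summed to 55691 to 119943 normalized counts. Most of that was LYZ (12310 to 76328), CEBPA (17715 to 34397) and SPI1 (7155 to 12900). CD14 was at 3.75 to 16.3, the only 1 of the 10 with a mean under 10, and MPO was at 18.5 to 36. The 7 erythroid and platelet genes summed to 0 to 15.9. The 7 T and natural killer genes summed to 11730 to 17042, of which NKG7 made 11720 to 17034, with CD3D at 0 in all 5 controls. The 5 B cell genes summed to 1470 to 2298, with PAX5 at 731.8 to 1480, CD79A at 234.2 to 598.8 and MS4A1 at 0 to 7.24.

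ATF7 and JDP2 belong to families that bind the cAMP response element and the AP-1 element, so the promoters of the members were searched for these letters. RefSeq promoter windows (GRCh38.p14, 250 bases before to 50 after a listed start) were matched for 9 of the 10 members. The full element TGACGTCA was in none of them, and 1.85% of 35116 promoters of the same length hold it. The AP-1 letters TGANTCA (7.71% of promoters) were in BBC3 alone, and the core TGACG, read on either strand (24.6% of promoters), was in BCL2, BCL2L1, BAX and PMAIP1. Shown are the stretches upstream of the first annotated exon (GENCODE 29) for the members with 1 listed start whose stretch holds a match, 5′ to 3′ on the gene's strand, with the match in capitals. BBC3 lies at chr19:47232767-47232917, minus strand. BAX lies at chr19:48954625-48954814, plus strand. PMAIP1 lies at chr18:59899746-59899947, plus strand.
BBC3: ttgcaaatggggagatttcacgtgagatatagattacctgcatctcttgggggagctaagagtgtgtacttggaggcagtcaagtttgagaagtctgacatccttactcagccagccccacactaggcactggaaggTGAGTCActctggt
BAX: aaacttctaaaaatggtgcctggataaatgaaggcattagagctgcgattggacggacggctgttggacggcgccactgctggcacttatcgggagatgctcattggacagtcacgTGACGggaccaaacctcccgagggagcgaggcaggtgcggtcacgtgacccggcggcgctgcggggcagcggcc
PMAIP1: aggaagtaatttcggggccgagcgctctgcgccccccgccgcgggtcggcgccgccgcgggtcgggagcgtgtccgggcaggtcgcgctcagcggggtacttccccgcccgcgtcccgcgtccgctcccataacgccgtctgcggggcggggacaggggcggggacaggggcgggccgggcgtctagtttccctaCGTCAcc
The match began at position -113 from the listed start in BBC3, -134 in BAX and -55 in PMAIP1. The windows of BCL2 and BCL2A1 lie wholly within exons annotated in GENCODE 29. A match describes letters only, and binding was not measured.

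Levels were compared between members per kb of exon, on the scale of normalized count per kb, over the 5 controls. The length was the union of all annotated exons, 11.77 kb for BCL2 and 1.09 kb for BCL2A1, so the order depends on it. BAX (1665 ± 434.5 (SD, n = 5)), MCL1 (1625 ± 342.4), BAK1 (1283 ± 381.3), BCL2L1 (970.3 ± 220.3) and BID (904.2 ± 189.2) headed the order. PMAIP1 (292.7 ± 85.6), BBC3 (268.3 ± 101.5), BCL2L11 (263.1 ± 34.3) and BCL2A1 (247.5 ± 59.9) followed, and BCL2 was lowest at 112.1 ± 17.4. By mean normalized count, not divided by length, BCL2 (1319) was above BBC3 (853.3), PMAIP1 (654.2) and BCL2A1 (269.5). The ranges of neighbours overlapped except at BID to PMAIP1 and at BCL2A1 to BCL2, where all 5 controls kept the order. THP1 controls thus held most antiapoptotic RNA as MCL1 and BCL2L1, with the gene targeted by venetoclax at 3.82% ± 0.494 of the 4 antiapoptotic levels per kb. Over all 19 libraries BBC3 and BCL2A1 varied most, with SDs of 0.92 and 0.82 on the log2 scale (percentiles 83.6 and 78.7 among 13021 genes), and PMAIP1 least, at 0.29 (percentile 6.3).

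**Figure D1:**
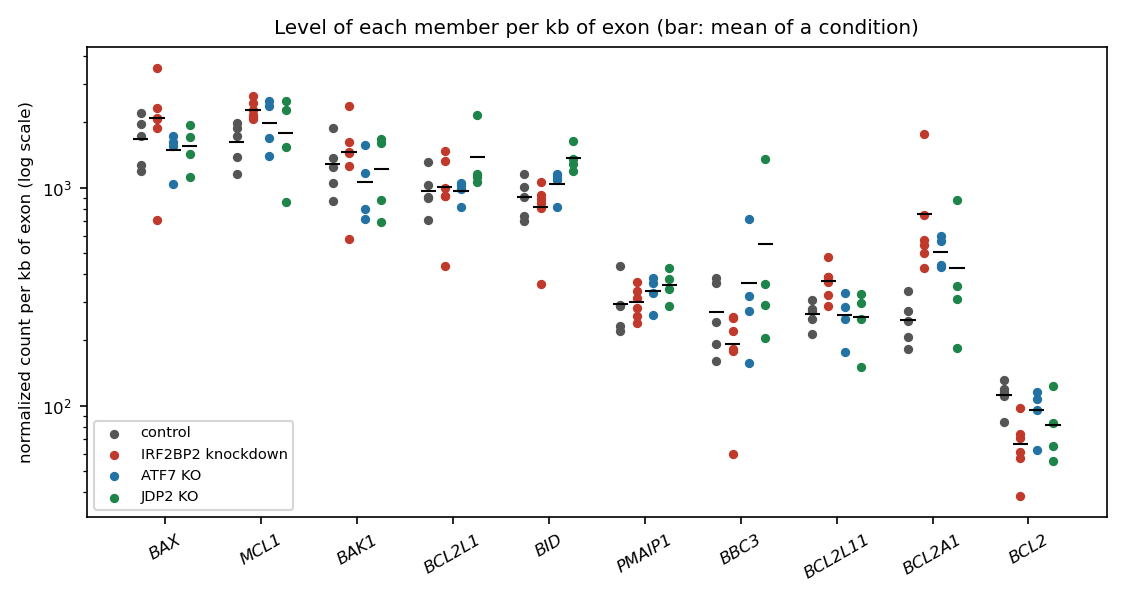
Normalized count per kb of exon (log axis) for each member in each library, coloured by condition, with black bars for the mean of a condition. The effectors, MCL1, BCL2L1 and BID sit well above the other 5 members in the controls, and BCL2 is the lowest.

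With IRF2BP2 knocked down, BCL2A1 rose 2.76-fold and BCL2 fell to 0.58 of its control level, while the other 8 members did not pass the test. The test was limma on log2(normalized count + 1) with Benjamini-Hochberg adjustment over all 13021 genes, and a gene was called at an adjusted p under 0.05. Of all genes, 12.7% were called in this comparison (7.64% higher and 5.04% lower), so 2 called of 10 members is a share near the background. The median log2 change was 0.09 over the members and -0.02 over all genes.

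BCL2A1, an inducible antiapoptotic member, was at 198 and 365.5 normalized counts in the shRNA controls, 294.7 in the wild type and 223.9 and 265.3 in the KO controls. With shRNA 1 it was at 548.5, 625.2 and 1916, and with shRNA 2 at 595.3, 812.3 and 465.6. All 6 knockdown libraries lay above every control, which 6.06% of all genes did in this direction. The log2 change was 1.46 ± 0.34 (SE; adjusted p = 0.00690), with both hairpins on the same side. The highest value, 1916, came from an outlying library. Without the 3 outlying libraries the change was 1.27 (adjusted p = 0.000746), and without the library labelled IRF2BP2 shRNA 2 replicate 3 it was 1.59 (adjusted p = 0.00615). Against the 2 shRNA controls alone it was 1.43, but the call was lost (adjusted p = 0.181), as were the calls of most genes, with 228 left in a fit of 12738.

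BCL2 was at 1357 and 990.5 in the shRNA controls, 1394 in the wild type, and 1546 and 1306 in the KO controls. The knockdown libraries held 875, 677.8 and 451.3 with shRNA 1 and 1150, 830.4 and 723.7 with shRNA 2. Every knockdown library was below the control mean, yet the groups overlapped, since shRNA 2 replicate 1 exceeded shRNA control replicate 3. The log2 change was -0.79 ± 0.24 (adjusted p = 0.0333), with -1.02 for shRNA 1 and -0.56 for shRNA 2. The call was lost without the 3 outlying libraries (-0.59, adjusted p = 0.0761) and against the shRNA controls alone (-0.62, adjusted p = 0.473). With 1 library left out it held in 13 of 19 fits. It was lost without shRNA control replicate 1 (adjusted p = 0.0777), wild type replicate 2 (0.0721), KO control replicate 1 (0.0918), KO control replicate 2 (0.0579), IRF2BP2 shRNA 1 replicate 2 (0.0662) or IRF2BP2 shRNA 1 replicate 3 (0.0630). Without the library labelled IRF2BP2 shRNA 2 replicate 3 it held (-0.78, adjusted p = 0.0480). The share of BCL2 among the 4 antiapoptotic levels per kb was 3.35% to 4.61% in the controls and 0.874% to 2.66% in the knockdown. It was 2.04% to 3.2% in ATF7 KO and 1.42% to 3.05% in JDP2 KO, so it lay below every control in all 3 perturbations. As a proportion within the class, it has no share of all genes to stand beside it. The share of BCL2A1 was 5.5% to 13.3% in the controls and 9.32% to 40.1% in the knockdown.

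MCL1, the most abundant antiapoptotic member per kb, was at 8627 and 6053 in the shRNA controls, 8192 in the wild type, and 7572 and 5069 in the KO controls. The 6 knockdown libraries ranged from 9022 to 11487 with a median of 9688, all above every control, as for 6.06% of all genes. The log2 change of 0.51 ± 0.25 did not pass (adjusted p = 0.187), and its 95% interval reached from 0.00 to 1.03. MCL1 kept its share of the antiapoptotic levels, at 54.7% ± 4.97 in the controls and 55.5% ± 4.35 (SD, n = 6) in the knockdown. BCL2L1, which encodes BCL-XL, was at 2360 to 4332 in the controls and 1447 to 4870 in the knockdown (log2 change -0.01, interval -0.56 to 0.54). Its lowest and highest knockdown values both came from outlying libraries.

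**Figure D2:**
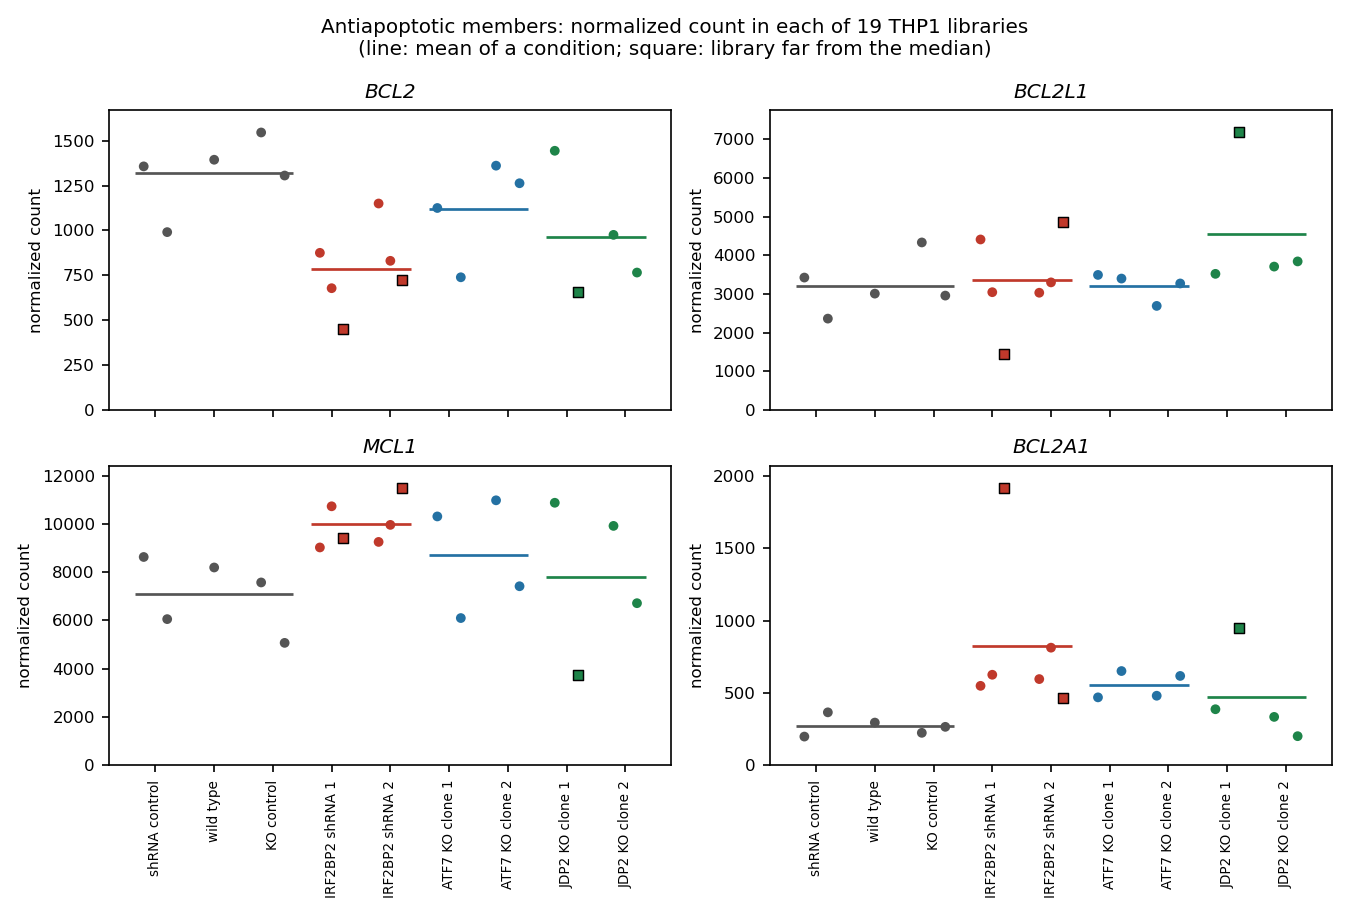
Normalized count of the 4 antiapoptotic members in each library by group, with lines at the mean of each condition and squares for the 3 outlying libraries. All 6 knockdown libraries lie above the controls for BCL2A1 and MCL1, as for 6.06% of all genes. BCL2 is low in the knockdown with overlap.

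Among the effectors, which form the pores, BAX was at 3072 to 5689 in the controls and 1832 to 9125 in the knockdown, with a log2 change of 0.23 ± 0.30 (adjusted p = 0.675). BAK1 was at 1919 to 4139 and 1285 to 5220 (0.11 ± 0.32, adjusted p = 0.858). The lowest and highest of both effectors in the knockdown were the libraries shRNA 1 replicate 3 and shRNA 2 replicate 3, so the spread between the outlying libraries exceeded the difference between the groups. In these 2 groups the proportion between the effectors varied far less. BAX was 54% to 58.7% of their sum per kb in the controls and 54.9% to 59.9% in the knockdown. The range was wider in the knockouts, at 50.7% to 68.5% in ATF7 KO and 47% to 73.6% in JDP2 KO.

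Of the BH3-only members, BCL2L11, which encodes BIM, was at 1415 to 2029 in the controls and at 1906 to 3203 (median 2513) in the knockdown. All 6 knockdown libraries were above the control mean, but shRNA 1 replicate 1 was below the wild type library, and the change of 0.49 ± 0.21 did not pass (adjusted p = 0.134). BBC3, a p53 target, was at 1219 and 1164 in the shRNA controls, 767.4 in the wild type and 607.5 and 508.8 in the KO controls, so the kinds of control did not overlap for it. In the knockdown it was at 189.7 to 811.3, below the control mean in all 6 libraries (log2 change -0.54 ± 0.45, adjusted p = 0.472). BID, which death receptor signalling cleaves to its active form, changed by -0.20 ± 0.23 and PMAIP1 by 0.06 ± 0.20, neither past the test.

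The hairpins were compared directly in a fit with each hairpin and clone as its own group. No member passed (0 of 10, with 0.0307% of all genes called, 1411 genes at an unadjusted p under 0.05, 0 by edgeR and 87 by DESeq2). With array weights BCL2 (adjusted p = 0.0134), PMAIP1 (0.0241) and BBC3 (0.0372) passed, each higher with shRNA 2. The differences nearest to the threshold were those of BAX (0.78 higher with shRNA 2, interval -0.01 to 1.56) and BID (0.60, interval -0.03 to 1.24).

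In the same libraries, RNA of macrophage differentiation was higher in the knockdown group than in the controls. The library labelled IRF2BP2 shRNA 2 replicate 3, with IRF2BP2 above every control, held the highest C5AR1 (26187, other knockdown libraries 2544 to 5163). It also held the highest ITGAX (21272, others 4551 to 6207). Against the shRNA controls alone 8 of 14 tested markers passed, and 12 did without the 3 outlying libraries. The main fit used all 5 controls. Of 14 tested markers 12 rose, among them ITGAX and C5AR1, and the summed level of the 16 listed genes was 2624 to 4313 in the controls and 14037 to 65525 in the knockdown, 2850 to 4177 in ATF7 KO and 1710 to 3001 in JDP2 KO. Of the stromal and endothelial list 1 of 5 tested genes rose, PECAM1, which monocytes also express, and the sum of the 6 listed was 884.7 to 1604 in the controls and 2502 to 9539 in the knockdown. The part of either list in the changes of BCL2A1, BCL2, BMF and HRK was not tested. In bulk RNA, a change in every cell and a change in the share of cells that hold a transcript cannot be told apart.

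Genes that act beside the members were read from lists chosen with results of these data known. Of 14 other BCL2 family genes 10 were tested in the knockdown: BMF rose, HRK fell and 8 did not pass. BMF, a BH3-only gene whose protein is released from the cytoskeleton, was at 320.6 to 559.4 normalized counts in the controls and 801.9 to 5332 in the knockdown (log2 change 1.96 ± 0.35, adjusted p = 0.000745), without overlap. HRK, another BH3-only gene, was at 42.4 to 74.98 and 7.583 to 18.14 (-1.88 ± 0.35, adjusted p = 0.00115), also without overlap. Of all genes, 6.06% lay higher and 5.11% lower in the knockdown without overlap. Within the BH3-only class, then, BMF and HRK moved in opposite directions while the 4 BH3-only members did not pass. Without the 3 outlying libraries BMF was 1.48 (adjusted p = 0.000741) and HRK kept its direction (adjusted p = 0.000807). Without the library labelled IRF2BP2 shRNA 2 replicate 3, which held the BMF value of 5332, BMF was 1.61 (adjusted p = 0.000445). Neither passed against the shRNA controls alone (adjusted p = 0.155 and 0.150).

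In the caspase and apoptosome list DFFA, an inhibitor of the apoptotic nuclease, fell by 0.90 on the log2 scale (adjusted p = 0.00719). In the inhibitor of apoptosis list BIRC2, a ubiquitin ligase of TNF signalling, rose from 542.5 to 1218 normalized counts (adjusted p = 0.00383, 1 of 6 tested). The death receptor list had 4 of 13 higher: RIPK1 (1.22 ± 0.20), TNFSF10, which encodes TRAIL (1.92 ± 0.37), CASP8 (0.80 ± 0.22), and CASP10. The median log2 change of the 13 was 0.31, against -0.02 for all genes. Against the shRNA controls alone none of the 13 passed (adjusted p = 0.0686 for TNFSF10, 0.114 for RIPK1, 0.281 for CASP8 and 0.410 for CASP10), nor did BIRC2 (0.278) or DFFA (0.321). CASP10 was also lost without the 3 outlying libraries (adjusted p = 0.0936), without IRF2BP2 shRNA 1 replicate 3 alone (0.0592) and with equal totals (0.0673). The mitochondrial partners of BCL2 proteins (0 of 10) and the MCL1 stability regulators (0 of 8) gave no call. Their most abundant genes were SLC25A5 (log2 change -0.36 ± 0.25), ITPR3 (-0.41 ± 0.40), TPT1 (0.03 ± 0.25) and HUWE1 (-0.25 ± 0.31).

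The p53 target genes outside the family did not move as a block: CDKN1A, the cell cycle inhibitor p21, rose by 3.42 ± 0.34, and TIGAR and BTG2 rose by 1.65 and 1.53, SESN2 fell by 0.92 and 14 of 18 did not pass (median log2 change 0.03). The p53 targets among the members, BBC3, PMAIP1 and BAX, gave -0.54, 0.06 and 0.23, none called. Among 16 transcriptional regulators of the family MYC fell by 1.16 (26824 to 13099 normalized counts, adjusted p = 0.0171). Without the 3 outlying libraries its log2 change was -0.73 (adjusted p = 0.0185). Against the shRNA controls alone CDKN1A, TIGAR and BTG2 passed (adjusted p = 0.00789, 0.0388 and 0.0175), and MYC (0.398) and SESN2 (0.414) did not. SESN2 was also lost without IRF2BP2 shRNA 1 replicate 3 (adjusted p = 0.0934).

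After ATF7 knockout no member passed the test, in a comparison where 0.0307% of all genes did (4 genes, all lower). At an unadjusted p under 0.05 there were 1001 genes, edgeR called 4 and DESeq2 41. BCL2A1 was nearest: ATF7 KO clone 1 held 469 and 650.8 normalized counts and clone 2 held 480.2 and 617, all above the highest control of 365.5. Its log2 change was 1.06 ± 0.38 (unadjusted p = 0.0111, adjusted p = 0.492), with 1.07 and 1.04 in the clones. Non-overlap in the higher direction occurred for 2.20% of all genes. BAK1 differed between the clones by -0.84 ± 0.49 (3475 and 2571 in clone 1, 1766 and 1583 in clone 2), which did not pass (adjusted p = 0.952). For the other 8 members the log2 change lay between -0.26 and 0.31. None of the 8 lists of apoptosis genes had a called gene. No member passed between the ATF7 clones, where 0.668% of genes did.

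JDP2 knockout gave no called member either, with 2.60% of all genes called (339 genes, 108 higher and 231 lower). BID stood nearest to the threshold, at 5733 and 7256 normalized counts in clone 1 and 5995 and 5290 in clone 2. The 4 values lay above the highest control, 5151, which 7.34% of genes did in this direction. Its log2 change was 0.61 ± 0.26 (adjusted p = 0.171), with 0.71 and 0.51 in the clones. Without IRF2BP2 shRNA 1 replicate 3, a library outside the contrast that enters the shared spread, BID was called (adjusted p = 0.0341).

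The mean of BBC3 in JDP2 KO was raised by 1 library. It was at 4294 normalized counts in clone 1 replicate 2, an outlying library, and at 917.1, 648.9 and 1148 in the others, within the range of the controls. That library also held the highest BCL2L1 (7179, others 3519 to 3841) and BID of all 19 and the lowest MCL1 (3737) and BCL2L11 (999.5). BCL2A1 split by clone: clone 1 was at 386.9 and 951, above every control, and clone 2 at 334 and 200.8, within their range. The clones differed by -1.22 ± 0.52 (unadjusted p = 0.0282), but the adjusted p was 0.998, and no member passed between the JDP2 clones (0.292% of genes did). BCL2 was at 1444 and 658.2 in clone 1 and 975.2 and 765.1 in clone 2 (log2 change -0.51 ± 0.27 against controls, adjusted p = 0.264). Of the 8 lists of apoptosis genes, only the transcriptional regulators held called genes: STAT5B fell by 1.19 and TP73 rose by 1.57. Without JDP2 KO clone 1 replicate 2 neither passed (adjusted p = 0.0749 and 0.194). STAT5B passed without all 3 outlying libraries and against the KO controls alone, and TP73 passed in neither of these fits. With edgeR both passed. Among the marker lists CD33, a myeloid surface receptor, fell from 1395 to 659.3 normalized counts (adjusted p = 0.0188) and FCGR2A, an Fc receptor, from 665.5 to 308.4 (adjusted p = 0.0329). Neither passed against the KO controls alone (adjusted p = 0.0957 and 0.171), and FCGR2A did not without JDP2 KO clone 1 replicate 2 (0.117). In ATF7 KO none of these genes was called. STAT5B there was at 1454 to 2020 (controls 2394 to 3839) and CD33 at 627.1 to 933.6 (controls 1267 to 1658), without overlap. TP73 was at 35.79 to 111.1 (controls 19.9 to 29.62), also without overlap, while FCGR2A overlapped. Of all genes, 2.20% lay higher and 2.54% lower in ATF7 KO without overlap. The part of CD33 and FCGR2A in the values of BID and BBC3 was not tested.

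For 6 of the 10 members the replicates of a number kept 1 order in all 4 knockout clones, as 48.9% of all genes did. BCL2, MCL1, BAK1, BCL2L11 and PMAIP1 were higher in replicate 1 than in replicate 2 in all 4 clones, and BBC3 was lower in all 4. BBC3 was at 500.2 and 1014 in ATF7 KO clone 1, 859.7 and 2280 in ATF7 KO clone 2, 917.1 and 4294 in JDP2 KO clone 1, and 648.9 and 1148 in JDP2 KO clone 2, for replicates 1 and 2. The labels do not say what the numbers stand for. With the number as a term in the knockout libraries alone, a fit added after seeing the data, no member passed in either knockout (BID 0.61, adjusted p = 0.143 in JDP2 KO; BCL2A1 1.06, adjusted p = 0.407 in ATF7 KO), and 764 genes did in JDP2 KO.

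**Figure D3:**
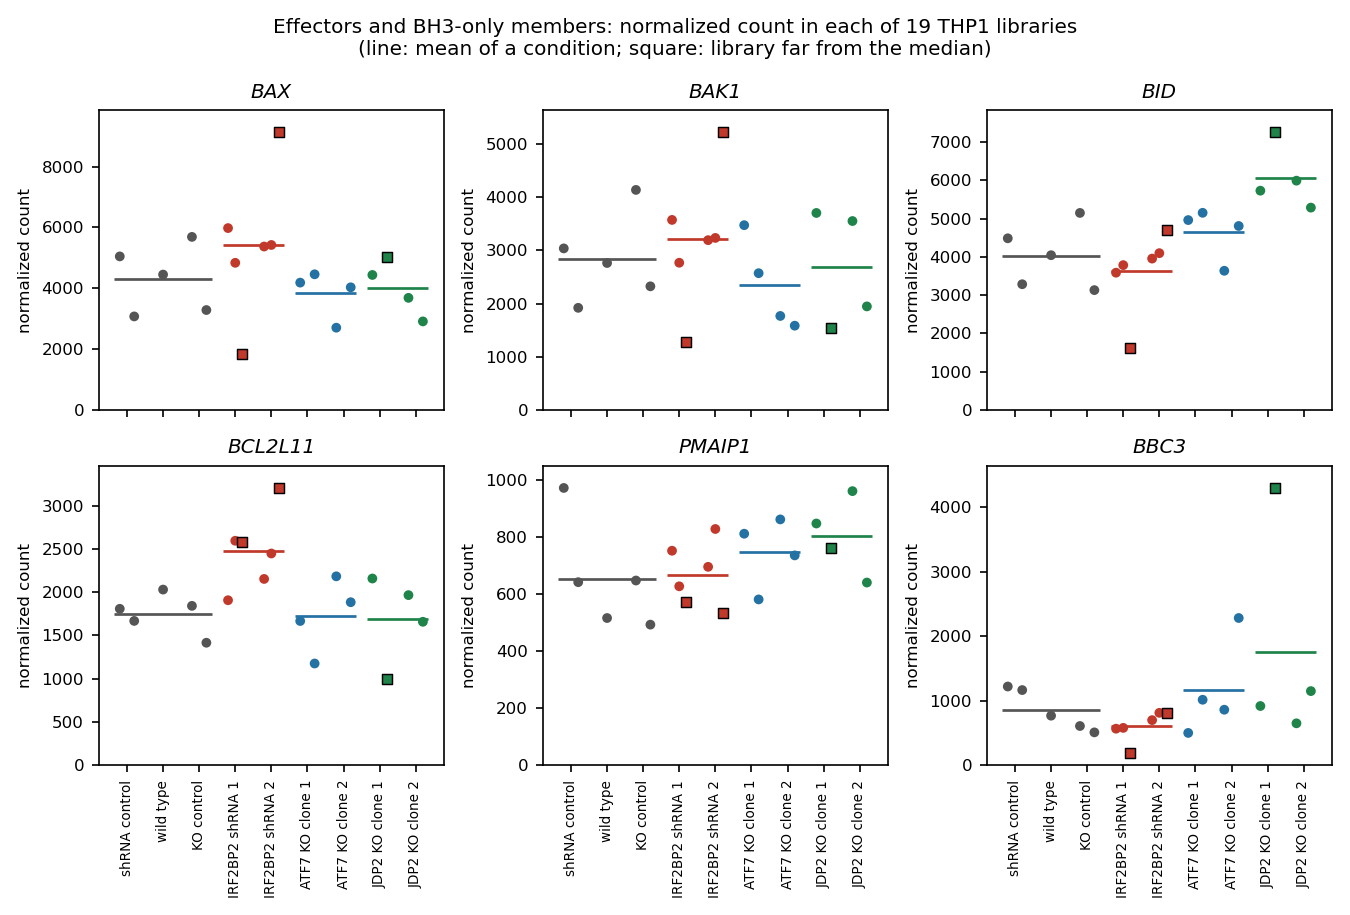
Normalized count of the effectors and the BH3-only members in each library by group, with lines at the mean of each condition and squares for the 3 outlying libraries. BID is above every control in all 4 JDP2 KO libraries, as are 7.34% of all genes. The JDP2 KO mean of BBC3 is raised by a single library at 4294.

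The 3 comparisons share the same 5 controls, so their values stand side by side. BCL2A1 changed by 1.46, 1.06 and 0.59 in the knockdown, ATF7 KO and JDP2 KO, BCL2 by -0.79, -0.26 and -0.51, and MCL1 by 0.51, 0.28 and 0.05. Whether the perturbations differ was tested directly, in contrasts where the controls cancel but still enter the shared spread.

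**Figure D4:**
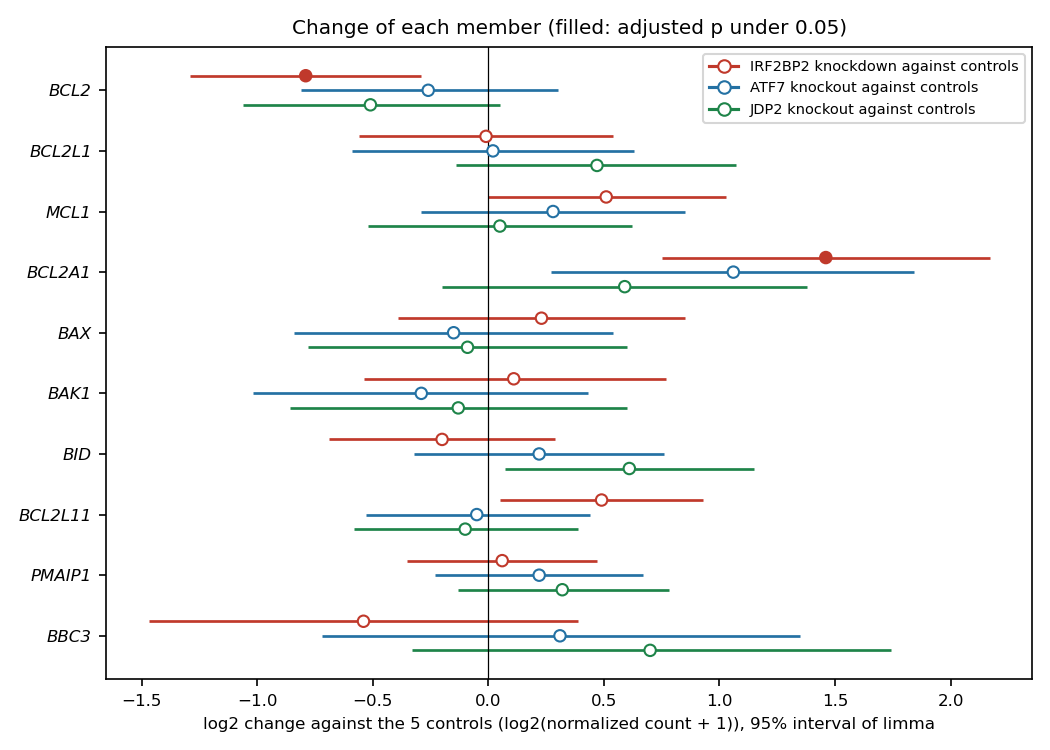
Log2 change of each member against the 5 controls with its 95% interval, for the knockdown, ATF7 knockout and JDP2 knockout. Filled symbols mark the 2 calls, BCL2A1 at 1.46 and BCL2 at -0.79 in the knockdown.

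Between knockdown and JDP2 KO, 3 members passed: BID was lower in the knockdown by 0.81 on the log2 scale (3622 against 6068 normalized counts, SE 0.25, adjusted p = 0.0163), BCL2L11 was higher by 0.59 (SE 0.23, adjusted p = 0.0488) and BBC3 was lower (log2 difference -1.24 ± 0.48, adjusted p = 0.0494). In this comparison 33.8% of all genes passed, so 3 of 10 is near the background. BID was at 1605 to 4703 in the knockdown and 5290 to 7256 in JDP2 KO. Without the 3 outlying libraries BID kept its call (-0.56, adjusted p = 0.0311), while BCL2L11 (0.24, adjusted p = 0.415) and BBC3 (-0.42, adjusted p = 0.458) did not. BCL2A1, not called in the main fit (0.87, adjusted p = 0.0697), was called in that fit (1.11, adjusted p = 0.00365). It was also called with equal totals (adjusted p = 0.0258), with array weights (2.64e-05) and without IRF2BP2 shRNA 2 replicate 3 (0.0414). Without JDP2 KO clone 1 replicate 2 alone none of these 3 passed (BID -0.72, adjusted p = 0.0555; BCL2L11 0.35, adjusted p = 0.231; BBC3 -0.67, adjusted p = 0.280), and BCL2A1 did (1.29, adjusted p = 0.00921). With the replicate number as a block over all libraries no member passed. With the number as a term in the knockout libraries alone all 3 passed (adjusted p = 0.0145, 0.0248 and 0.0202). In fits with 1 library left out, BID was called in 18 of 19, BCL2L11 in 5 and BBC3 in 6. BCL2L11 and BBC3 lost the call without any 1 of the 5 controls.

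No member passed between the knockdown and ATF7 KO, where 17.9% of genes did. BCL2A1 differed by 0.41 with an interval from -0.35 to 1.17, so its change in the knockdown was not shown to differ from that in ATF7 KO. BCL2L11 was nearest at 0.54 ± 0.23 (adjusted p = 0.101). Between JDP2 KO and ATF7 KO no member passed, and 0.0384% of genes did.

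Across the 19 libraries some members moved together. The libraries share conditions, so these values are descriptions. MCL1 and BCL2L11 had the highest Pearson r of any pair of members, 0.86 on the log2 scale and 0.78 without the 3 outlying libraries. BCL2L1 with BID gave 0.84 and BAX with BAK1 0.76, or 0.58 and 0.73 without those libraries. BCL2 and BCL2A1 had the lowest, -0.68 and -0.43. The value of 0.63 for BCL2L1 with BBC3 turned to -0.21 without the outlying libraries.

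**Figure D5:**
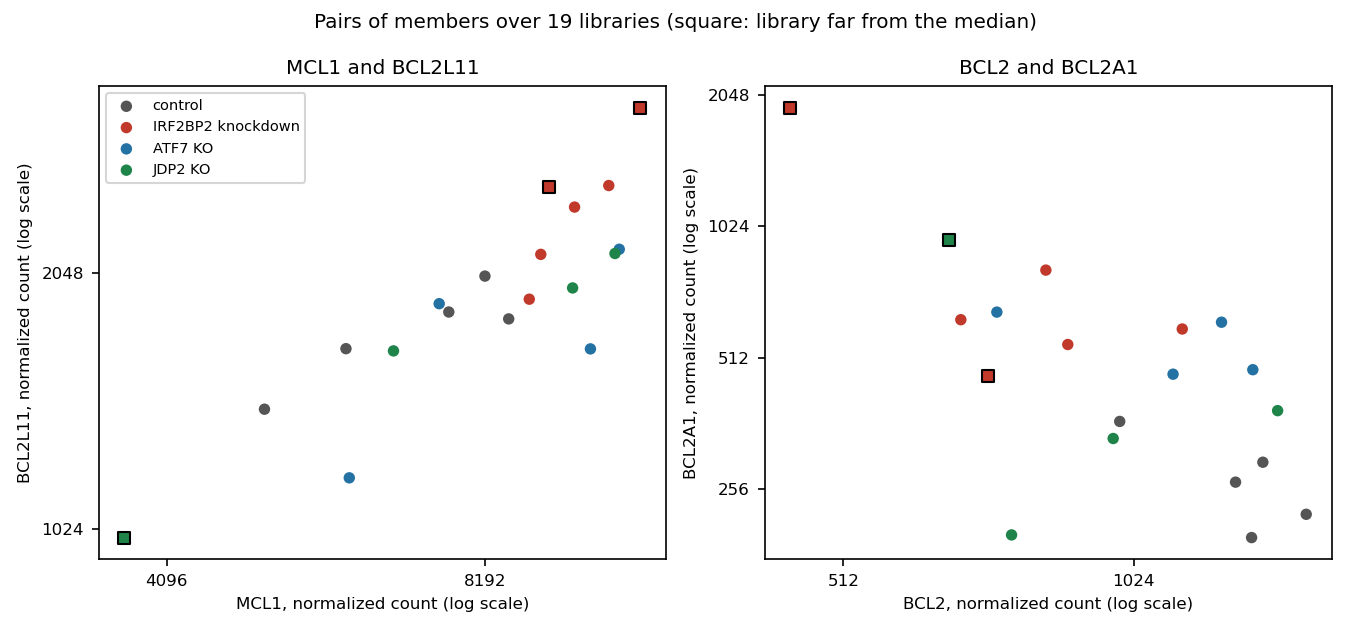
MCL1 against BCL2L11 (left) and BCL2 against BCL2A1 (right) in 19 libraries, normalized counts on log axes, with squares for the 3 outlying libraries. BCL2L11 is high where MCL1 is high, and BCL2A1 tends to be high where BCL2 is low, with the extreme points in outlying libraries.

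The genes most like a called member were named by Pearson r over the 19 libraries among 11030 genes with a mean of at least 50 normalized counts. For BCL2 they were ANKRD33B (0.93, or 0.88 without the outlying libraries), PRPS2 (0.91 and 0.83) and ETV5 (0.86 and 0.82). For BCL2A1 they were SQOR (0.84 and 0.69), MGST2 (0.84 and 0.66) and SELENOK (0.82 and 0.62).

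In the authors' deposited table for the knockdown, BCL2 (log2 fold change -0.70, adjusted p = 0.0203) and BCL2A1 (1.40, adjusted p = 0.000259) were the members with an adjusted p under 0.05, and 17.5% of its genes were under it. The authors' deposited tables for ATF7 and JDP2 knockout held no member under that value, with BID at 0.55 (adjusted p = 0.1) after JDP2 knockout.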

How the data were processed

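The authors deposited DESeq2-normalized gene counts, a signal (reads divided by 1 size factor per library), for 19 libraries. Per the submitters' processing notes the build was hg38 and the tools included featureCounts and DESeq2 (no versions). The aligner, gene annotation and use of strand were not given in the sources used here. Exons of BCL2L1, MCL1, BAK1, BCL2L11 and BBC3 overlap another gene in GENCODE 29, so their values may hold its reads. The authors' deposited comparison tables hold base means (signal), log2 fold changes with standard errors, Wald scores, p-values and adjusted p-values. The Wald score had the opposite sign of the fold change, so directions follow the fold change. 2 low-quality libraries of the labels (shRNA control replicate 2, wild type replicate 1) were not analysed here.

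Normalized values were whole multiples of 1 step per library for 100% of 388037 values (tolerance 0.01), which gave read counts. Log2(normalized count + 1) was tested with limma 3.58.1 (R 4.3.3, trend) over all libraries in 4 groups, or 7 groups for hairpins and clones, on genes with a mean of at least 10. Log2 changes are on this scale, where those of low genes come out too small. edgeR 4.0.16 and DESeq2 1.42.0 ran on recovered reads. On simulated counts for 13021 genes, a log2 change of 1 was called in 50% of changed genes for the knockdown, 19% for ATF7 knockout and 27% for JDP2 knockout, and a log2 change of 2 in 96%, 94% and 96%. In that simulation a small set of genes was changed, none of low level, and libraries were drawn independently, without shared clones. Its percentages may therefore differ from the power of the tests on the real libraries. The members and lists were chosen with earlier results of these data known. All members are described. Of each list up to 3 called genes with the lowest p are named, or, in the knockdown, the 2 with the highest mean where none was called; for the knockouts lists without a call are given as counts only. CASP10, SESN2 and the marker genes were named after their values were seen. The genes most like a called member are the 3 with the highest r. Alternatives were other normalizations, filters, pseudocounts, controls, tests, weights, a replicate block (over all libraries, or, added after seeing the data, in the knockout clones alone) and libraries left out. Some results of the gene lists are not reported here.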

Additional observations from a re-analysis of the deposited data

Results flagged for a closer look

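In 4 cases the highest or lowest library of a condition lay farther from its neighbour than Dixon's 95% critical value allows, of 40 combinations of member and condition examined, where chance flags about 1 in 20 groups. BCL2L1 was at 7179 normalized counts in JDP2 KO clone 1 replicate 2, with the next library at 3841. BBC3 was at 4294 in the same library, with the next at 1148. BCL2A1 was at 1916 in IRF2BP2 shRNA 1 replicate 3, with the next knockdown library at 812.3, and BID was at 1605 there, with the next at 3587. Both libraries are among the 3 outlying ones.

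The response of 3 members differed between the knockdown and JDP2 knockout in the limma test of the difference: BID by -0.81, BCL2L11 by 0.59 and BBC3 by -1.24 on the log2 scale. Without JDP2 KO clone 1 replicate 2 none of these 3 passed. In fits with 1 library left out, BID was called in 18 of 19, BCL2L11 in 5 and BBC3 in 6.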

How the results depend on the processing

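Over 33 member results and 33 alternative settings, 47 values changed sign, in 13 results, none of them called. BCL2A1 in the knockdown was called in 32 of 33 alternatives (adjusted p 2.51e-05 to 0.181) and BCL2 in 24 of 33 (0.00823 to 0.473). Members called in the knockdown were 0 with arm-matched controls, 1 with equal totals (BCL2 -0.73, adjusted p = 0.0768) and 1 without the 3 outlying libraries. Genes called there were 228 with arm-matched controls (86% higher, against 60.3%) and 3931 with array weights. With array weights 1 member was called in ATF7 KO (BCL2A1), 3 in JDP2 KO (BID, BCL2 and PMAIP1), 1 between knockdown and ATF7 KO and 3 between hairpins. Genes called in ATF7 KO were 33 (arm-matched), 41 (DESeq2), 15 (quantile), 8 (equal totals), 48 (array weights) and 25 (without the 3 libraries). In JDP2 KO they were 89 (arm-matched), 587 (edgeR), 1569 (DESeq2), 734 (equal totals), 167 (no filter), 4189 (array weights), 199 (replicate block) and 697 (without the 3 libraries). Between knockdown and JDP2 KO 1 member was called without the filter and 0 with the replicate block (BID -0.67, adjusted p = 0.0633). The cause of these shifts was not tested. Between the 4 knockout clones all 12 same-numbered pairs of libraries had deviations correlated at 0.46 to 0.65 (replicates 1 and 2 of a clone mirror each other, so these are not independent), a hint of pairing from the data and not the design. Of the other 40 pairs 13 were over 0.1 (range -0.52 to 0.68), so the numbers do not pair the libraries there. With the replicate block in the knockout clones alone, chosen after seeing the data, 764 genes were called in JDP2 KO and no call of a member changed.

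Leaving out 1 library gave 1 to 2 members and 1057 to 2068 genes called in the knockdown, 2 to 11 genes in ATF7 KO, 0 to 1 members and 95 to 1499 genes in JDP2 KO, 0 to 1 members between knockdown and ATF7 KO and 1 to 3 between knockdown and JDP2 KO. Uncalled log2 changes that turned sign were, in the knockdown, BCL2L1 (0.14 arm-matched, 0.05 edgeR, equal totals and replicate block, 0.06 DESeq2 and array weights, 0.11 without the 3 libraries) and PMAIP1 (-0.26 arm-matched). In ATF7 KO they were BCL2L1 (-0.16 arm-matched, -0.04 edgeR, -0.02 TMM, -0.06 equal totals and replicate block) and BCL2L11 (0.06 arm-matched). In JDP2 KO they were MCL1 (-0.01 TMM, -0.13 quantile, -0.20 equal totals), BAK1 (0.30 array weights, 0.10 without the 3 libraries), BCL2L11 (0.01 arm-matched, 0.09 array weights, 0.14 without the 3 libraries) and BBC3 (-0.27 array weights). With 1 library left out, the knockdown ranges were -0.14 to 0.21 for BCL2L1, -0.05 to 0.36 for BAK1, -0.29 to 0.02 for BID and -0.03 to 0.21 for PMAIP1. The ATF7 KO ranges were -0.08 to 0.13 for BCL2L1, -0.26 to 0.01 for BAX, -0.17 to 0.13 for BCL2L11 and -0.08 to 0.64 for BBC3. The JDP2 KO ranges were -0.15 to 0.37 for MCL1, -0.21 to 0.05 for BAX, -0.32 to 0.10 for BAK1 and -0.23 to 0.14 for BCL2L11.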
